A study of Homo sapiens with 6 samples.

Results

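The cytosolic HSP70 and HSP110 chaperones were followed by RNA sequencing in the SKM-1 line after 48 h of celastrol (3 libraries) or of DMSO, a solvent control (3 libraries). The family was taken by gene symbol and comprised 10 genes, HSPA1A, HSPA1B, HSPA1L, HSPA2, HSPA4, HSPA4L, HSPA6, HSPA8, HSPA14 and HSPH1. These genes fill 11 of the 58735 rows of the deposited table, because HSPA14 is listed under 2 identifiers. SKM-1 is known as a human myeloid leukaemia line, and the sample titles name it for every library. Celastrol is a plant triterpenoid known as an inducer of the heat shock response, and the sources used here do not state its dose. The labels do not say whether libraries of a treatment were separate cultures, so p-values measure the spread between libraries, which may be technical.

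HSP70 proteins grip stretches of unfolded protein in an ATP cycle. J-domain proteins start the grip by stimulating ATP hydrolysis, and nucleotide exchange factors end it by swapping ADP for ATP. HSP110 proteins are large relatives of HSP70 that act as such exchange factors. Some cytosolic HSP70 genes are constitutive and serve everyday folding, HSPA8 above all, while HSPA1A, HSPA1B and HSPA6 are switched on by proteotoxic stress through the transcription factor HSF1. HSF1 binds arrays of the short unit GAA, alternating with its reverse complement TTC, which are called heat shock elements.

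Sequence before the start site of several members carries these units, and the stretches are shown because the genes behind them moved in opposite directions. RefSeq windows on GRCh38.p14, with 250 bases before and 50 after each start, were matched for 9 of the 10 genes. The motifs searched were GAANNTTC and TTCNNGAA, each its own reverse complement, and a triple array, in which 3 alternating units follow one another with any 2 bases between them (GAA, TTC, GAA or TTC, GAA, TTC). The triple array contains both of the shorter motifs, and both strands were covered. Among 35116 windows of 300 bases, 6.77% held GAANNTTC, 7.74% held TTCNNGAA and 0.490% held a triple array. Capitals mark the matches below. The strand is plus for HSPA6, HSPA1A and HSPA1B and minus for HSPA8 and HSPA1L.
HSPA6, chr1:161524290-161524539: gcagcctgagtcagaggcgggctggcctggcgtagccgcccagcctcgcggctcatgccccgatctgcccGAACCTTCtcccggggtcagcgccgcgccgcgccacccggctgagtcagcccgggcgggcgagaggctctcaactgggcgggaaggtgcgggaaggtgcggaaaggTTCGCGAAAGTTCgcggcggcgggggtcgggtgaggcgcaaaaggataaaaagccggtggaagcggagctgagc
HSPA1A, chr6:31815293-31815463: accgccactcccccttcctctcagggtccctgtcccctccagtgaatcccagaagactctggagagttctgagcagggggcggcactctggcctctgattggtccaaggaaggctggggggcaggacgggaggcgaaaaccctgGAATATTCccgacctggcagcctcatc
HSPA1B, chr6:31827488-31827734: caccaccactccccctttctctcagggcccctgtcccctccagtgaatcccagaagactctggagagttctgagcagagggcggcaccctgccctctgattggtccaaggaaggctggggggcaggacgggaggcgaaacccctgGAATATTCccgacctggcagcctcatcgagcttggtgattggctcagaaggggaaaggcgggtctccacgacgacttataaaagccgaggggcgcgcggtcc
HSPA8 far site, chr11:123062346-123062374: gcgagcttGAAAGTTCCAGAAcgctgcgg
HSPA8 near site, chr11:123062171-123062199: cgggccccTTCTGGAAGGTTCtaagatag
HSPA1L site, chr6:31815429-31815452: caggtcggGAATATTCcagggttt

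The HSPA6 window held 1 triple array, beginning 74 bases before the start, and the constitutive HSPA8 held 2, beginning 230 and 55 bases before it. Starts here are those of RefSeq, which for several members differ from the listed gene starts given below. Both HSPA8 sites lie inside the listed gene (123057489 to 123063230, minus strand), and the HSPA2 window lies inside its listed gene too. HSPA1A and HSPA1B each held a single GAANNTTC, beginning 106 and 105 bases before the start. Only exact letters were searched, so neighbouring units that depart from them were not counted, and the matches do not measure the strength of a heat shock element. Windows of HSPA1A and HSPA1L overlap by 241 bases, since the genes run away from each other, and the marked site is the same DNA in each, chr6:31815437-31815444. A TTCNNGAA lay in 1 of 3 HSPA4L windows (chr4:127782072-127782371), which lies inside the listed gene (127781821 to 127840733). None of these exact motifs was found in the windows of HSPA4, HSPH1 and HSPA2, which says nothing of sites elsewhere or of sites with inexact units.

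The reads recovered from the table ranged from 15231742 to 16231066 with celastrol, against 13549187 to 15410904 with DMSO. Levels are given in FPKM, fragments per kilobase of gene scaled to a library total. They can be set side by side between genes, except where genes share sequence. There the level also depends on how shared reads were assigned, which the sources used here do not state. A gene was called when limma's moderated test on log2(FPKM + 0.1) gave a Benjamini-Hochberg adjusted p under 0.05 over the 12685 genes with a mean of at least 1 FPKM. By this rule 15.3% of all tested genes were higher with celastrol and 14.2% were lower. Defining genes of the labelled lineage were only partly present. Of 16 myeloid markers 6 reached 1 FPKM in every library, among them PTPRC and SPI1, while CD34 and FLT3 were listed at 0 throughout and MPO did not exceed 0.0337 FPKM. Of 16 erythroid markers 13 reached 1 FPKM in every library. GATA1 averaged 111 FPKM with celastrol and 158 FPKM with DMSO, and KLF1 averaged 44.1 and 104 FPKM. Whether the line is as labelled was not tested. The summed level of the erythroid markers was 554 to 611 FPKM with celastrol and 742 to 767 FPKM with DMSO. For the myeloid list it was 65.1 to 71.1 and 83.6 to 92.8 FPKM. Both sums were lower with celastrol. The myeloid list had 3 of 7 tested markers called lower and 0 higher, with a median log2 fold change of -0.14. Much of its lower sum came from LYZ, at 16.5 to 18.8 FPKM with celastrol and 36.6 to 39.2 FPKM with DMSO. Positive log2 fold changes were found for 3 of the 7, including PTPRC (0.23) and SPI1 (0.33), and these were not called. Of 15 tested erythroid markers 11 were called lower and 0 higher, with a median log2 fold change of -1.25, although RHAG, which made up much of the sum, had 284 to 296 FPKM with celastrol and 247 to 270 FPKM with DMSO. The 6 lymphoid markers went the other way, summing to 15.4 to 15.9 FPKM with celastrol and 8.42 to 10.4 FPKM with DMSO, with CD3D and NKG7 called higher and MS4A1 listed at 0 throughout. The part of these marker changes in the chaperone results was not tested. In bulk RNA, fewer cells of a kind and less RNA per cell cannot be told apart.

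Of the 10 tested rows of the family, 5 were called higher with celastrol (HSPA6, HSPA1L, HSPH1, HSPA1A and HSPA1B), 1 was called lower (HSPA8) and 4 passed in neither direction. Over all tested genes 15.3% were called higher and 14.2% lower. The median log2 fold change of the 10 rows was 0.42, beside 0.02 over all tested genes. The groups did not overlap for 7 of the 10 rows, against 47.3% of all tested genes. All 4 heat-inducible genes were among the higher ones, and none of the 4 constitutive rows, which come from 3 genes, was. HSPA2 stayed below the minimum level and was not tested.

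**Figure D1:**
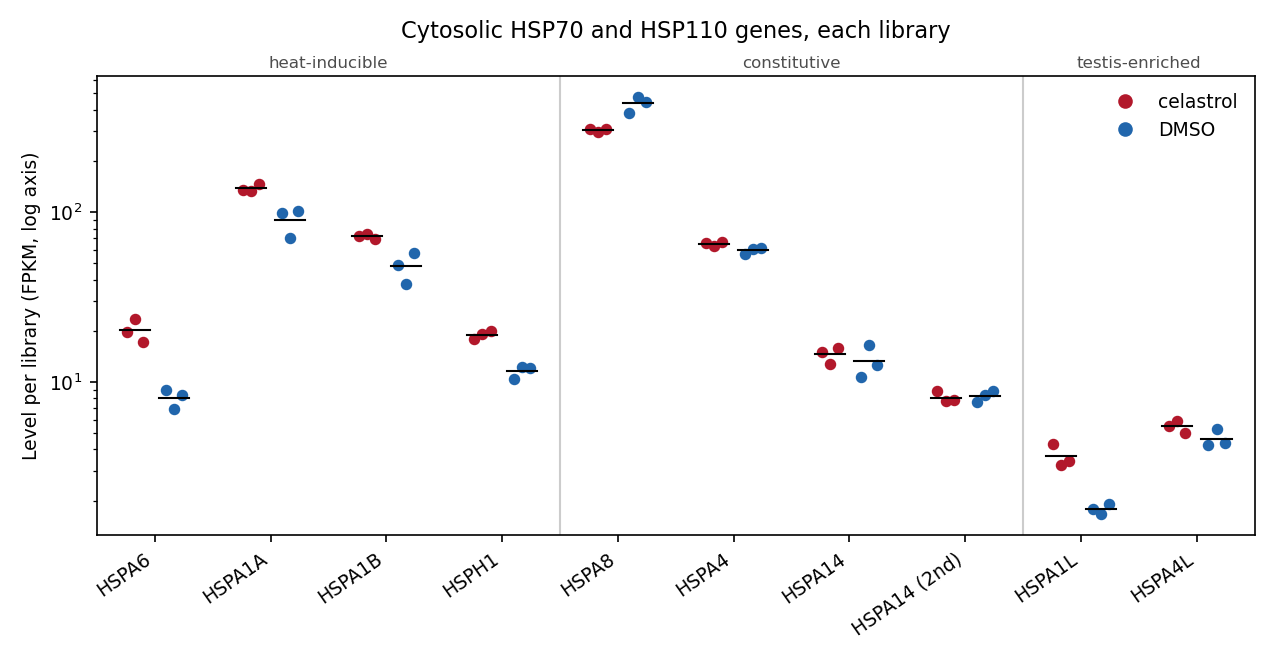
FPKM (log axis) of each tested family row in each library, celastrol left of DMSO, points for libraries and black bars for means (n = 3 each). Celastrol points lie above DMSO points for all 4 heat-inducible genes, for HSPA1L and, narrowly, for HSPA4, and below them for HSPA8.

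HSPA6 encodes a strictly stress-inducible HSP70 found in humans and absent from mice (chromosome 1, 161524540 to 161526910, plus strand). It had 19.8, 23.4 and 17.1 FPKM in celastrol libraries 1 to 3, against 8.94, 6.95 and 8.37 FPKM in DMSO libraries 1 to 3. The lowest celastrol library was above the highest DMSO library. The mean was 20.1 ± 3.20 FPKM with celastrol and 8.09 ± 1.02 FPKM with DMSO (SD over 3 libraries each), 2.48-fold higher. The log2 fold change was 1.30 (SE 0.14, limma adjusted p = 0.000723), the 152nd highest of 12685 tested genes. It rested on 681 to 923 reads per celastrol library and 222 to 305 per DMSO library. This gene was therefore read at appreciable depth without treatment too.

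A nearby pseudogene copy, HSPA7 (chromosome 1, 161606291 to 161608217), was listed at a higher level than HSPA6 in every library. It averaged 25.9 ± 1.63 FPKM with celastrol and 17.2 ± 2.18 FPKM with DMSO (SD over 3 libraries each), with a log2 fold change of 0.59 (limma adjusted p = 0.00563). The separate test of HSPA7 was added after its level was seen. Of the 100-base stretches of the HSPA6 transcript, 27.6% also occur in the HSPA7 transcript, so reads of these copies may be exchanged. With reads of the copies summed, the log2 fold change was 0.90 (SE 0.11, limma adjusted p = 0.00170). The rise therefore passed with HSPA6 alone and with the sum, and its size differed between them.

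HSPA1A and HSPA1B encode the major stress-inducible HSP70, and their longest open reading frames were 99.8% identical. HSPA1A (chromosome 6, 31815464 to 31817946, plus strand) had 135, 133 and 147 FPKM in celastrol libraries 1 to 3, against 98.9, 70.0 and 101 FPKM in DMSO libraries 1 to 3. HSPA1B (chromosome 6, 31827735 to 31830255, plus strand) had 72.1, 74.0 and 69.7 FPKM in celastrol libraries, against 48.7, 37.9 and 57.1 FPKM in DMSO libraries. Neither gene's groups overlapped. DMSO library 2 was the lowest for each, while the celastrol libraries lay close together. HSPA1A was 1.54-fold higher on average, with a log2 fold change of 0.64 (SE 0.14, limma adjusted p = 0.0128). HSPA1B averaged 71.9 ± 2.15 FPKM with celastrol and 47.9 ± 9.60 FPKM with DMSO. Its log2 fold change was 0.61 (SE 0.14, limma adjusted p = 0.0147), and it missed the threshold without celastrol replicate 2 (adjusted p = 0.050007). Since 67.3% of the 100-base stretches of HSPA1A also occur in HSPA1B, the division of reads between them is uncertain. Entered as 1 gene, the copies summed to 210 ± 5.34 FPKM with celastrol and 138 ± 26.4 FPKM with DMSO (SD over 3 libraries each), with a log2 fold change of 0.63 (SE 0.14, limma adjusted p = 0.0122). The level of HSPA1A over HSPA1B was 1.93 ± 0.159 with celastrol and 1.88 ± 0.136 with DMSO, a difference smaller than the spread between libraries.

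HSPA1L, a close relative known mainly from testis, lies beside HSPA1A on the opposite strand (chromosome 6, 31809619 to 31815065). A gap of 398 bases separates the listed starts of this pair. HSPA1L had 4.28, 3.22 and 3.44 FPKM in celastrol libraries 1 to 3, against 1.77, 1.66 and 1.90 FPKM in DMSO libraries 1 to 3. The groups did not overlap, and celastrol library 1 was the highest. The log2 fold change was 0.99 (SE 0.14, limma adjusted p = 0.00248), or 2.05-fold between means, from 136 to 172 reads per celastrol library and 57 to 72 per DMSO library. None of its 100-base stretches occurred in another gene's transcript. All 3 genes of the locus were thus called higher, with HSPA1L at a far lower level than its neighbours.

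**Figure D2:**
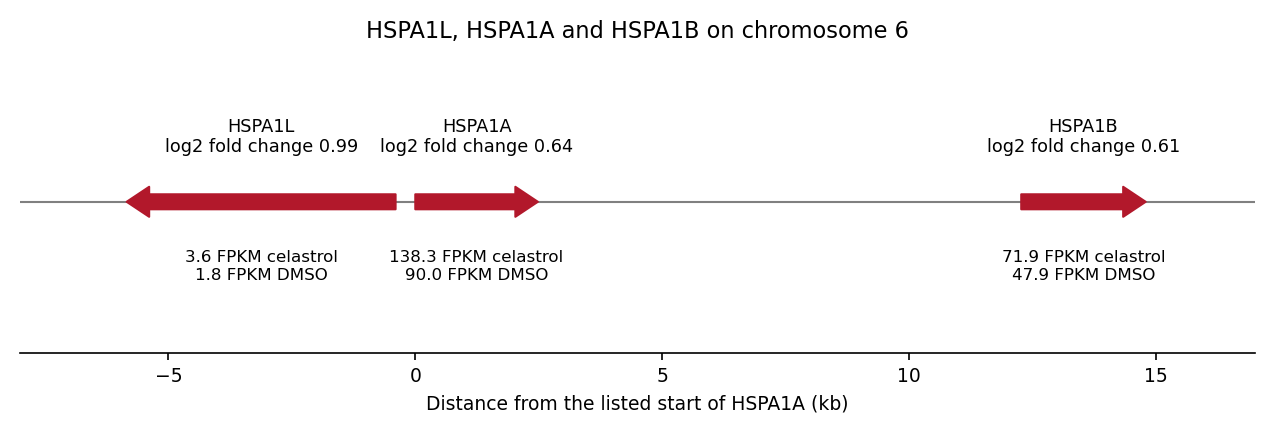
Positions and directions of HSPA1L, HSPA1A and HSPA1B as distance in kb from the listed start of HSPA1A, with the log2 fold change above and the mean FPKM of each treatment (n = 3 each) below each gene. HSPA1L and HSPA1A point away from each other, and all 3 genes were higher with celastrol, by 0.99, 0.64 and 0.61.

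HSPH1 is the stress-inducible HSP110 (chromosome 13, 31134974 to 31162388, minus strand). It had 17.9, 19.1 and 19.8 FPKM in celastrol libraries 1 to 3, against 10.3, 12.2 and 12.1 FPKM in DMSO libraries 1 to 3. The groups stood well apart, with 2376 to 2799 reads per celastrol library and 1250 to 1515 per DMSO library. HSPH1 was 1.64-fold higher, with a log2 fold change of 0.71 (SE 0.09, limma adjusted p = 0.00148). The other HSP110 genes were not called, and the difference between genes was not tested. HSPA4, the constitutive HSP110 of most tissues (chromosome 5, 133051962 to 133106449), averaged 65.0 ± 1.88 FPKM with celastrol and 59.5 ± 2.54 FPKM with DMSO (SD over 3 libraries each). Its groups did not overlap, as for 25.3% of all tested genes in this direction, but the log2 fold change of 0.13 did not pass (95% interval -0.02 to 0.28, limma adjusted p = 0.175). HSPA4L, an HSP110 enriched in testis (chromosome 4, 127781821 to 127840733), averaged 5.47 ± 0.440 FPKM with celastrol and 4.62 ± 0.549 FPKM with DMSO, with overlapping groups. Its log2 fold change of 0.24 did not pass (95% interval -0.01 to 0.50, limma adjusted p = 0.135).

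HSPA8 encodes HSC70, the constitutive HSP70 of folding, clathrin uncoating and chaperone-mediated autophagy (chromosome 11, 123057489 to 123063230, minus strand). It was the member that fell. HSPA8 had 310, 294 and 308 FPKM in celastrol libraries 1 to 3, against 384, 479 and 447 FPKM in DMSO libraries 1 to 3. Celastrol libraries lay within a narrow band below all DMSO libraries, and DMSO library 2 was the highest. The mean was 304 ± 8.52 FPKM with celastrol and 437 ± 48.1 FPKM with DMSO (SD over 3 libraries each), a level 1.44-fold lower with celastrol. The log2 fold change was -0.52 (SE 0.09, limma adjusted p = 0.00565), and the call was lost under quantile normalization (-0.30, adjusted p = 0.107). The table lists 17 HSPA8 pseudogene rows, which held 14 to 29 reads together per celastrol library and 22 to 27 per DMSO library, at most 0.122% of the reads of HSPA8.

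HSPA14 encodes a ribosome-associated HSP70 that works with the J-domain protein DNAJC2 (chromosome 10, 14838164 to 14871741, plus strand). Its main row had 15.1, 12.8 and 15.9 FPKM in celastrol libraries 1 to 3, against 10.6, 16.4 and 12.6 FPKM in DMSO libraries 1 to 3, and these ranges overlapped. The log2 fold change was 0.16 (95% interval -0.21 to 0.53, limma adjusted p = 0.485). It lay at 0.015 without DMSO replicate 1, at 0.32 without DMSO replicate 2 and at 0.40 under TPM, and passed under none of these. An overlapping row of the same name (14838160 to 14847018) averaged 8.07 ± 0.611 FPKM with celastrol and 8.29 ± 0.619 FPKM with DMSO, at a log2 fold change of -0.04 (limma adjusted p = 0.786). That value lay above 0 under other scalings, at 0.20 as TPM and 0.06 when scaled to listed reads. Of the 100-base stretches of the overlapping row, 7.21% also occur in the main row. Its longest open reading frame has 361 codons, against 509 in the main row, and whether it encodes an HSP70 was not tested. The partner DNAJC2 averaged 11.4 ± 0.837 FPKM with celastrol and 11.4 ± 1.54 FPKM with DMSO, and was added after its value was seen. HSPA2, the testis HSP70 (chromosome 14, 64535905 to 64546173), had 1 read in celastrol library 3 and 0 reads in the other 5 libraries. A count of 0 allows up to 3 reads, or 0.0313 and 0.0329 FPKM in celastrol libraries 2 and 1 and 0.0349 to 0.0386 FPKM per DMSO library, counting error only. The single read of celastrol library 3 stood for 0.0103 FPKM.

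**Figure D3:**
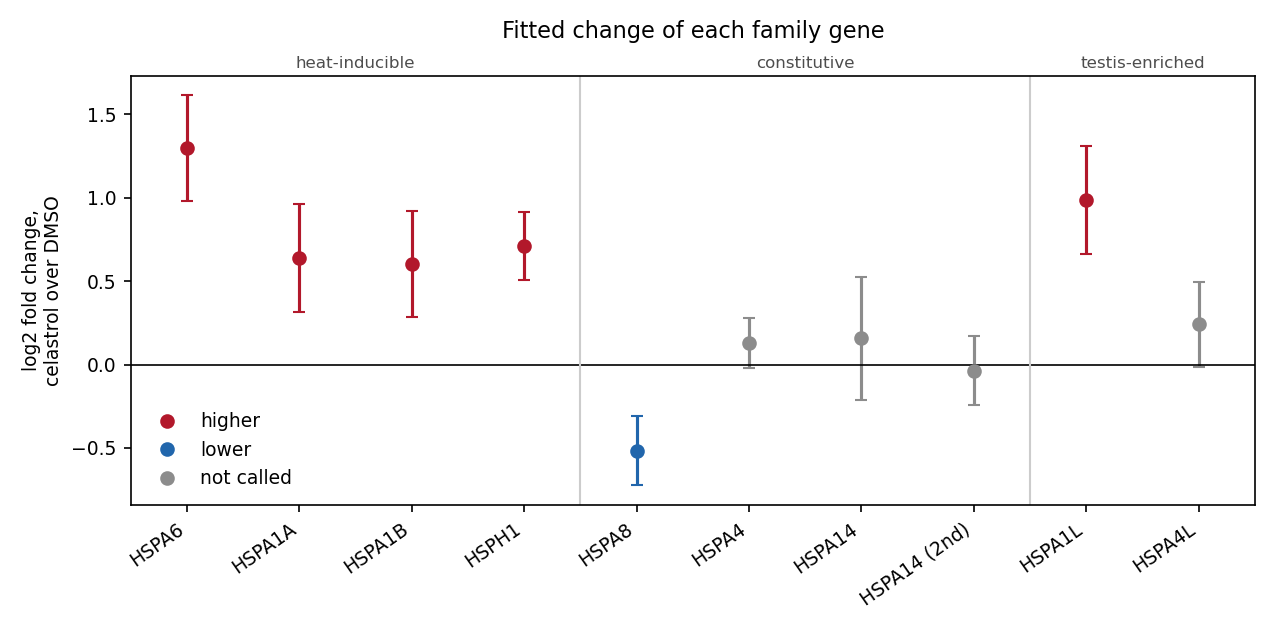
Log2 fold change of celastrol over DMSO for each tested family row, with 95% intervals from limma, red for called higher, blue for called lower and grey for not called. HSPA6 has the highest value at 1.30, HSPA8 is the only row called lower, at -0.52, and the intervals of HSPA4, HSPA4L and both HSPA14 rows include 0.

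Ratios within a library set inducible against constitutive genes and cannot be moved by how libraries are scaled. The ratios over HSPA8 can be moved by how reads of shared sequence were assigned, which is not known. Of the 100-base stretches, 67.3% of HSPA1A, 72.7% of HSPA1B and 27.6% of HSPA6 also occur in another gene, against 0% of HSPA8. The same limit holds for the shares and the order of levels below. The summed level of HSPA1A and HSPA1B was 0.669, 0.703 and 0.702 times that of HSPA8 in celastrol libraries 1 to 3, against 0.384, 0.226 and 0.353 times in DMSO libraries 1 to 3. On the log2 scale the ratio was higher by 1.14 with celastrol, and by 0.91 without DMSO replicate 2. HSPA6 stood at 0.0637, 0.0796 and 0.0554 times HSPA8 in celastrol libraries, against 0.0233, 0.0145 and 0.0187 times in DMSO libraries, a log2 difference of 1.82. HSPH1 stood at 0.272, 0.303 and 0.299 times HSPA4 in celastrol libraries, against 0.183, 0.201 and 0.199 times in DMSO libraries, a log2 difference of 0.59. In none of the 3 ratios did the groups overlap. For the ratios over HSPA8 this had to follow, since the groups of each gene were already apart, in opposite directions. The ratios are descriptions of the members, without a test.

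**Figure D4:**
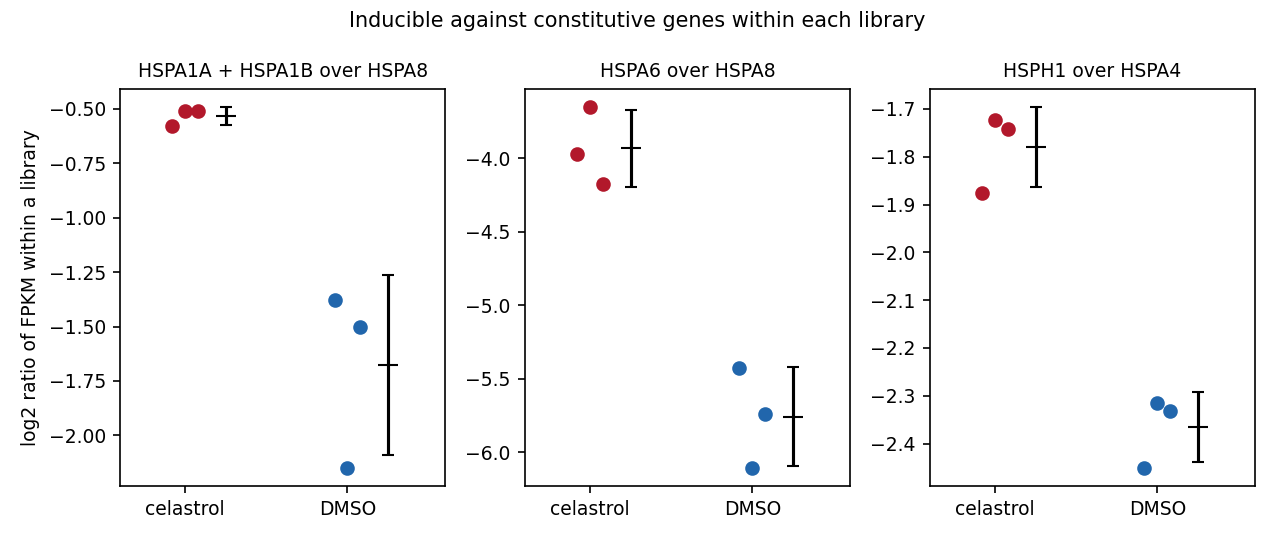
Log2 ratio of FPKM within each library for HSPA1A plus HSPA1B over HSPA8, HSPA6 over HSPA8 and HSPH1 over HSPA4, celastrol left of DMSO, with mean and SD (n = 3 each) beside the points. Every celastrol point lies above every DMSO point, and the mean differences are 1.14, 1.82 and 0.59.

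The heat-inducible genes held 37.4%, 39.2% and 38.4% of the summed family level in celastrol libraries 1 to 3, against 26.4%, 18.2% and 24.98% in DMSO libraries 1 to 3. HSPA8 alone held 46.8 ± 0.550% with celastrol and 64.0 ± 4.06% with DMSO (SD over 3 libraries each). The summed level of the family was 654, 636 and 660 FPKM in celastrol libraries, against 632, 698 and 714 FPKM in DMSO libraries, and these ranges overlapped. The makeup of the family thus differed while its summed level lay in a shared range as FPKM. The sum was not tested under other scalings. As TPM the log2 fold changes of members lay higher, at -0.27 for HSPA8 and 0.88 for HSPA1A, beside -0.52 and 0.64 as FPKM. DMSO library 2 had the lowest inducible share, the lowest HSPA6, HSPA1A and HSPA1B and the highest HSPA8. The fourth inducible gene, HSPH1, did not follow, at 12.2 FPKM there and 10.3 and 12.1 FPKM in DMSO libraries 1 and 3.

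By level, HSPA8 was highest and HSPA1A next in each treatment. With celastrol, HSPA1B and HSPA4 followed in that order, without overlap between their libraries. With DMSO, HSPA4 stood above HSPA1B, and their ranges overlapped. HSPA6 had rank 5 of 11 rows with celastrol, overlapping HSPH1, and rank 8 with DMSO, where it overlapped the lesser HSPA14 row. HSPA4L, HSPA1L and HSPA2 were the lowest in each treatment, in that order and without overlap.

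Most tested HSP70 relatives outside the family fell. Of 4 tested among 6, 3 were called lower and 0 higher, with a median log2 fold change of -0.59. Among all tested genes 14.2% were called lower and 15.3% higher. HSPA5, the chaperone of the endoplasmic reticulum also called BiP, averaged 105 ± 6.88 FPKM with celastrol and 180 ± 6.63 FPKM with DMSO (SD over 3 libraries each), at a log2 fold change of -0.77 (limma adjusted p = 0.000479). HSPA9, the mitochondrial HSP70 mortalin, averaged 57.7 ± 1.62 FPKM with celastrol and 87.9 ± 2.43 FPKM with DMSO, at -0.60 (limma adjusted p = 0.000662). HYOU1, the HSP110 relative of the endoplasmic reticulum, was at -0.58 (limma adjusted p = 0.00329). HSPA8, HSPA5 and HSPA9, the abundant housekeeping HSP70 genes of their compartments, were thus all lower, while the inducible cytosolic ones were higher.

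Among other nucleotide exchange factors for cytosolic HSP70, 3 of 6 were called higher and 0 lower, with a median of 0.28. Beside them stand 15.3% higher and 14.2% lower of all tested genes. BAG3, a stress-inducible exchange factor that links HSP70 to selective autophagy, averaged 23.0 ± 0.344 FPKM with celastrol and 16.7 ± 1.61 FPKM with DMSO, at a log2 fold change of 0.47 (limma adjusted p = 0.00617). BAG2 and BAG5 were called at 0.32 and 0.31. Each lost its call without celastrol replicate 1, 2 or 3 and without DMSO replicate 3, and BAG2 also without DMSO replicate 1. The highest limma adjusted p among the left-out libraries was 0.141 for BAG2 and 0.0837 for BAG5. Both calls were also lost with no filter and with the replicate block, and that of BAG2 under quantile normalization. Among 9 tested cytosolic J-domain partners of 10, 2 were higher and 1 was lower, with a median of 0.01. Those counts lie near the 15.3% higher and 14.2% lower of all tested genes. DNAJA1 rose by 0.51 and DNAJB4 by 0.79 on the log2 scale (limma adjusted p = 0.00686 for each). DNAJC7 was the lower call, at -0.21, and it held without DMSO replicate 1 alone among the left-out libraries (highest adjusted p = 0.153). It lay at 0.03 as TPM, and the call was also lost with no filter, per listed read and with the replicate block. DNAJB1, the classic heat-inducible J-domain partner of HSPA1A, was at -0.01 (limma adjusted p = 0.905), a sign that turned per listed read and without DMSO replicate 3. Under TPM it passed as higher (0.23, adjusted p = 0.0383).

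Adaptors and the ubiquitin ligase that work with HSP70 gave 0 higher and 1 lower of 4 tested, with a median of 0.10. The lower gene was the HSP70-binding cochaperone ST13, at -0.25 (limma adjusted p = 0.0395), a call kept among the left-out libraries only without DMSO replicate 1 (highest adjusted p = 0.159). As TPM it lay at -0.0068 (adjusted p = 0.952) and per listed read at -0.15 (adjusted p = 0.161), and the call was also lost when low genes were kept, under quantile normalization and with the replicate block. STIP1, which bridges HSP70 and HSP90, lay at 0.04 (limma adjusted p = 0.664), and passed as higher under TPM (0.28, adjusted p = 0.00635). The heat shock factor list had 1 higher and 0 lower of 4, with a median of -0.04. HSF1 averaged 28.5 ± 0.475 FPKM with celastrol and 29.9 ± 2.98 FPKM with DMSO, and its log2 fold change of -0.07 did not pass (limma adjusted p = 0.584); the sign turned under TPM (0.17) and when scaled to listed reads (0.03). HSF2 was at -0.17 (limma adjusted p = 0.272), and passed as lower without DMSO replicate 1 (adjusted p = 0.0211). The gene called was HSBP1, whose product binds HSF1 and restrains it, at 0.42 (limma adjusted p = 0.0235). Its call was lost without DMSO replicate 2 or 3 (highest adjusted p = 0.0630) and with no filter (adjusted p = 0.0688). Of 11 tested other heat shock response genes among 12, 3 were higher and 2 lower, with a median of 0.18. The small heat shock protein HSPB1 was at 0.73, the mitochondrial cochaperonin HSPE1 at 0.42, and HSP90AA1 and HSP90AB1 at 0.37 and -0.41; HSPE1 held its call only without celastrol replicate 1 or DMSO replicate 3 among the left-out libraries (highest adjusted p = 0.0976), and HSP90AB1 turned to 0.19 under quantile normalization and lost its call with no filter and as TPM. HSPE1 and HSP90AA1 also lost their calls with no filter (limma adjusted p = 0.0966 and 0.0702). In all, 9 of 38 tested partner genes were higher and 7 lower, to be read against the 15.3% higher and 14.2% lower among all tested genes. The lower count was 4 without any 1 of the 3 celastrol libraries or DMSO replicate 2 or 3, and 8 without DMSO replicate 1.

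Alternatives in scaling, filter, pseudocount, test and libraries left 3 members called throughout. HSPA6 was called under all 15 alternatives, with log2 fold changes of 1.18 to 1.55, and HSPH1 under all 15, at 0.63 to 0.95. HSPA1L was called under all 14 alternatives that tested it, at 0.73 to 1.25. HSPA1A was called under 14 of 15 and HSPA1B under 13 of 15, each missing when low genes were kept (adjusted p = 0.0519 for HSPA1A and 0.0550 for HSPA1B). HSPA4 and HSPA4L passed as higher under TPM, at 0.37 and 0.49. HSPA8 was called under 14 of 15, at -0.60 to -0.27, and was negative under each. The median over all genes lay at 0.26 under TPM and at 0.12 when scaled to listed reads, beside 0.02 as FPKM. The share of all genes called varied with the alternative too. It was 4.14% higher and 4.19% lower when low genes were kept, 41.5% and 6.41% under TPM, and 23.8% and 10.2% per listed read. The higher share was 20.8% above 5 FPKM and 19.6% by limma-voom. Leaving out celastrol replicate 2 gave 8.82% higher and 8.97% lower, leaving out celastrol replicate 3 gave 9.56% and 10.1%, and leaving out DMSO replicate 3 gave 8.98% and 7.9%. The family had 4 to 6 higher and 1 lower without each library. Set against those medians, HSPA8 stayed lower, at -0.27 as TPM and -0.42 per listed read.

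**Figure D5:**
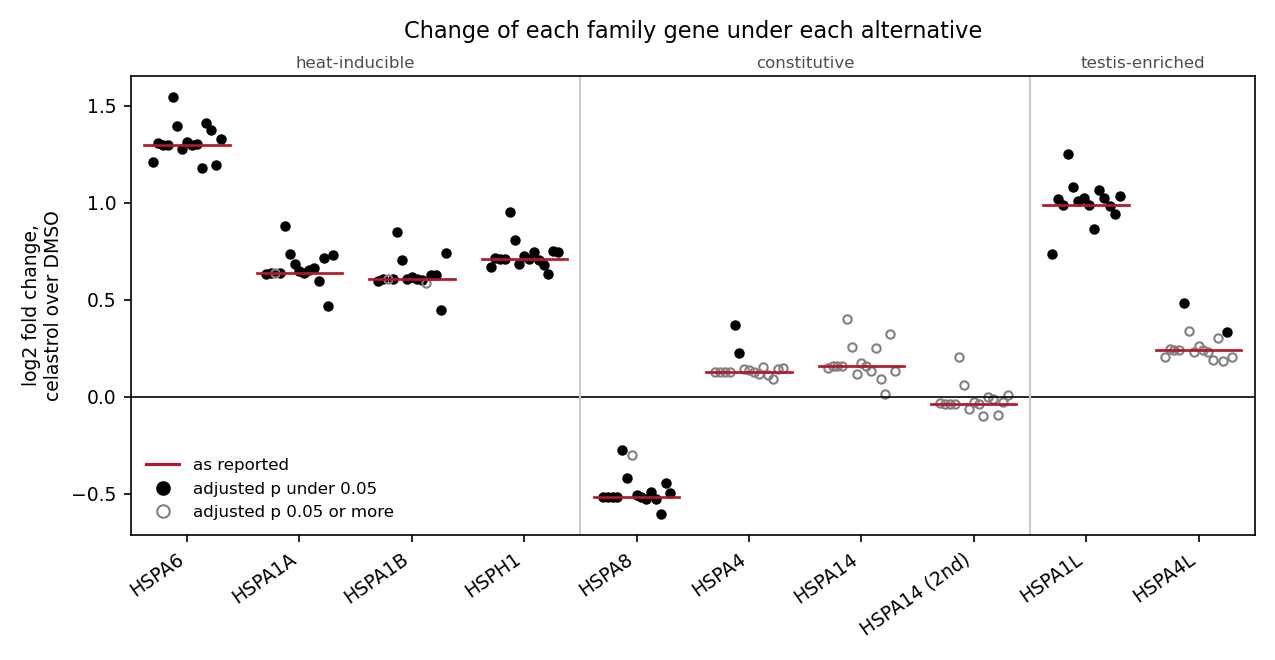
Log2 fold change of each tested family row under each alternative but the summed copies (points, filled where the limma adjusted p was under 0.05), with the reported value as a red line. All points of the 4 heat-inducible genes and HSPA1L lie above 0 and all points of HSPA8 below it, while those of the overlapping HSPA14 row fall on either side of 0.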

How the data were processed

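The authors deposited FPKM per gene and library, and the submitters' processing notes name HISAT2 2.0.5, featureCounts 1.5.0-p3 and the build GRCh38; the sources used here do not state settings or strandedness, so antisense reads may be included. Each value times its gene's length, divided by what 1 read is worth in that library, came to a whole number of reads, to within 0.001, in 100% of the values above 0. The total the authors divided by was 1.04 to 1.05 times the listed reads with celastrol and 0.963 to 0.994 times with DMSO. Positions of all 11 family rows matched GENCODE release 29. The members, gene lists and tests were chosen with earlier results of these data known.

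Groups and replicate numbers come from sample titles. The test was limma-trend (limma 3.58.1, R 4.3.3) on log2(FPKM + 0.1), two-sided, treatment as its single term, for genes with a mean of at least 1 FPKM, checked on simulated counts. Fold changes on this scale understate low genes. Alternatives were pseudocounts of 1 and 0.01, no filter (any read), a minimum of 5 FPKM, TPM, listed reads, quantile normalization, limma-voom on recovered reads, a replicate block, summed copies, and leaving out each library. Shared stretches were counted on the sense strand of GENCODE transcripts, in stretches of 100 bases. Alignments used Biopython 1.88. Genes named are all members and the called partners, at most 4 a list by size, plus HSF1, HSF2, BAG3, DNAJB1, HSPA5, HSPA9 and STIP1; others are marked. No library repeated another: the chi-square per gene within a treatment was 4.01 to 13.4.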

Additional observations from a re-analysis of the deposited data

How the results depend on the processing

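No filter on low values took the call from HSPA1A (0.64, adjusted p = 0.0519), HSPA1B (0.61, 0.0550) and their sum (0.63, 0.0528), leaving 3 members higher in place of 5; quantile normalization took it from HSPA8 (-0.30), leaving 0 lower in place of 1. HSPA4 passed as higher under TPM (0.37) and listed reads (0.23), and HSPA4L under TPM (0.49). Without each library in turn, log2 fold changes ranged from 0.45 to 0.74 for HSPA1B, 0.18 to 0.34 for HSPA4L (called without DMSO replicate 2, adjusted p = 0.0422), 0.015 to 0.32 for the main HSPA14 row and -0.10 to 0.010 for the overlapping HSPA14 row, which lay at 0.20 under TPM and 0.060 per listed read. HSPA6 summed with HSPA7 and the HSPA14 rows summed (0.05) kept their side of the threshold. The inducible share was higher by 15.1 percentage points, and by 11.8 from reads not divided by length.

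Over all genes, 1947 higher and 1797 lower calls became 5266 and 813 under TPM and 3024 and 1295 per listed read; higher genes made up more of the calls there. Leaving out each library gave 1119 to 1948 higher and 1003 to 1766 lower; celastrol replicates 2 and 3 and DMSO replicate 3 moved a count by over 1.5 times. Partner calls, 9 higher and 7 lower, became 4 and 3 with no filter, 23 and 3 under TPM and 14 and 4 per listed read; lower calls were 4 under quantile normalization and 4 with the replicate block, and 4 to 8 without each library. Turned signs were those of DNAJC7 (TPM 0.028), HSP90AB1 (quantile 0.19), HSF1 (TPM 0.17, listed reads 0.031), HSF2 (TPM 0.069) and DNAJB1 (TPM 0.23, listed reads 0.083, -0.089 to 0.049 without each library). Same-numbered libraries did not deviate together (r across genes -0.03 to 0.03). That gave no sign of pairing by number, but pairing without a strong shared effect would look the same. With the replicate block 1776 genes were higher and 1617 lower, and no family member changed its call. HSPA2 was not tested, and HSPA1L fell under the minimum of 5 FPKM. At this depth HSPA2 was near or at 0 reads in every library.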
